A study of Mus musculus with 12 samples.

Results

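MiRNA levels after NOD2 stimulation with MDP (muramyl dipeptide) were compared directly with those after NOD1 stimulation with Tri-DAP (a tripeptide of alanine, glutamic acid and meso-diaminopimelic acid), with the unstimulated cells left out. The comparison used 8 of the 12 arrays of the series: the 4 arrays labelled MDP (array numbers 6, 9, 12 and 15) and the 4 labelled Tri-DAP (5, 8, 11 and 14). Both groups were primary endothelial cells from the lungs of male wild type C57BL/6N mice. Per the study's methods, each isolation pooled several mice, the cells were selected with beads against CD144 and then CD31, grown to confluence, starved briefly, and exposed to 10 μg/mL of one ligand for 6 hours. The methods give 4 independent isolations for all conditions, so the arrays of one ligand are separate isolations, whereas MDP and Tri-DAP arrays share isolations that the labels do not match up. The doses were equal by mass, and the sources used here do not give them as molar concentrations.

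NOD1 and NOD2 are cytosolic receptors for fragments of bacterial peptidoglycan, and both signal through the kinase RIPK2 to NF-κB. The ligands differ in structure in that Tri-DAP carries meso-diaminopimelic acid and no sugar, whereas MDP carries N-acetylmuramic acid and no diaminopimelic acid. MiRNAs are short RNAs that repress messenger RNAs which pair with their seed (bases 2 to 8 of the mature strand). MiRNAs of one family share a seed, and miRNAs of one genomic cluster are often cut from a common primary transcript.

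Each array was a TaqMan low-density card with 375 miRNA assays, 335 for mouse and 40 for rat miRNAs, and with 4 wells for the small nuclear RNA U6. The threshold cycle (Ct) is the PCR cycle at which a well's signal crosses a set line, so a lower Ct means more template, and a Ct of 40 is an undetermined well. Levels are given on the log2 scale as reference Ct minus miRNA Ct, and differences as MDP minus Tri-DAP. A miRNA was tested where at least 2 arrays of each ligand measured it, which left 241 miRNAs, and one with an unadjusted p below 0.05 in limma is written here as called. Levels were set against the mean of the 4 U6 wells, which the deposited normalized values also use, and against the average Ct of those 174 miRNAs that gave a Ct on each of the 12 arrays (the common mean).

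The sequences of the miRNAs called below are shown first, because an assay that names no arm could read either strand of its hairpin. They are RefSeq mature miRNAs of mouse build GRCm38.p6, written 5′ to 3′ with the seed in capitals. Of the 335 mouse assays, 90 matched a RefSeq mature name exactly and 280 matched with or without an arm. Both arms are shown for miR-674, miR-547, miR-489, miR-196b and miR-23a, whose assay names give none; for the families shown further on, only the strand that carries the family seed is shown. The miR-343 assay was designed for rat, and the mouse sequence is shown. MiR-590-5p and miR-1 were among the called miRNAs for which no sequence is shown.
miR-674-5p: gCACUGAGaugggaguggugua
miR-674-3p: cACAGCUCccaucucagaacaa
miR-343: uCUCCCUUcaugugcccaga
miR-547-5p: cACUUGAGgauguaccaccca
miR-547-3p: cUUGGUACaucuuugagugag
miR-489-5p: uGUCAUAUgugugaugacacuuucu
miR-489-3p: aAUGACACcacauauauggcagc
miR-196b-5p: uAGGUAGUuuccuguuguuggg
miR-196b-3p: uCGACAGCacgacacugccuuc
miR-546: aUGGUGGCacggaguc
miR-23a-5p: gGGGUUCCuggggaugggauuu
miR-23a-3p: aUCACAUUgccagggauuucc
miR-423-5p: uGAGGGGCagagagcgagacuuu
No seed occurred more than once among these sequences. The loci lay apart as well: miR-674-5p at chr2:117185151-117185172, miR-343 at chr7:19386688-19386707, miR-547-3p at chrX:67988383-67988403, miR-489-3p at chr6:3721922-3721944, miR-196b-5p at chr6:52230129-52230150, miR-546 at chr10:126998471-126998486, miR-23a-3p at chr8:84208563-84208583 and miR-423-5p at chr11:77078122-77078144.

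By contrast, the let-7 family, whose members lay close together below, has a single seed in all 9 assays of the card. Its members differ only outside that seed.
let-7a-5p: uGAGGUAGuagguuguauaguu
let-7b-5p: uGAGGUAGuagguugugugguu
let-7c-5p: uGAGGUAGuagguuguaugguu
let-7d-5p: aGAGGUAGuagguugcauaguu
let-7e-5p: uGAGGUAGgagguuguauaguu
let-7f-5p: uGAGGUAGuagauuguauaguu
let-7g-5p: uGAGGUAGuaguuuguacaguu
let-7i-5p: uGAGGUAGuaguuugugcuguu
miR-98-5p: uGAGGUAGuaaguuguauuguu

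The arrays were checked for the labelled cell type and for other cells first. MiR-126-3p, the defining endothelial miRNA, was measured at Ct 19.4, 19.8, 19.1 and 20.6 on MDP arrays 6, 9, 12 and 15. On Tri-DAP arrays 5, 8, 11 and 14 it was measured at Ct 19.3, 20.2, 18.6 and 20.4, so it was early on all 8. Relative to the common mean it lay lowest on MDP array 15 (7.74) and Tri-DAP array 14 (7.90), against 9.24 to 9.69 on the other 6 arrays.

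The same pair of arrays stood apart in miRNAs known from smooth muscle cells, pericytes and fibroblasts. MiR-145 lay at 4.84 on MDP array 15 and 4.93 on Tri-DAP array 14 relative to the common mean, and between -3.21 and 1.28 on the other 6. MiR-143 (3.35 and 3.31), miR-214 (4.63 and 4.98) and miR-199a-3p (3.85 and 3.83) were also highest on these arrays. The 5 members of the mural and fibroblast list, all tested, had a median difference between ligands of 0.11 relative to U6 and -0.09 relative to the common mean. None was called, where 3.32% and 2.9% of all 241 tested miRNAs were, and none of their intervals lay within 2-fold (-5.45 to 3.87 at the widest relative to the common mean). Relative to U6 the summed level of the 5 ran from 0.00408 to 0.192 on the MDP arrays and from 0.00886 to 0.0824 on the Tri-DAP arrays. In such a bulk sample more cells of a type and more RNA per cell cannot be told apart. Their part in the results below was not tested, and the counts of called miRNAs are therefore also given without both arrays.

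Of the other marker lists, the epithelial list (the miR-200 miRNAs, miR-203 and miR-205) had 6 of 7 members tested, with medians of -0.13 relative to U6 and -0.52 relative to the common mean. Its summed level relative to U6 ran from 0.00119 to 0.00964 after MDP and from 0.00106 to 0.00629 after Tri-DAP. The leukocyte list had 3 of 4 tested, with medians of 0.58 and 0.02, and summed levels of 0.00120 to 0.00150 and 0.000351 to 0.00308. Its members miR-223 and miR-150 were measured on every array. MiR-142-3p was measured on 3 arrays of each ligand and differed by 0.58 relative to U6 and -0.09 relative to the common mean. MiR-142-5p was measured on 2 MDP arrays and no Tri-DAP array. Of the red blood cell list, miR-486 was measured on no array, and miR-451 was measured on 1 array of each ligand. Of these lists and the neuronal list, no member was called.

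The reference itself shaped the direction of the comparison. U6 was measured at a mean Ct of 20.2, 20.01, 18.7 and 19.7 on the MDP arrays and 19.7, 21.6, 18.6 and 18.3 on the Tri-DAP arrays. It averaged 19.7 ± 0.666 (SD, n = 4) after MDP and 19.5 ± 1.51 (SD, n = 4) after Tri-DAP, and Tri-DAP array 8 lay latest. The 4 U6 wells of one array often disagreed. MDP array 12 held wells between Ct 15.7 and 19.98, MDP array 9 between 17.5 and 21.1, and Tri-DAP array 14 between 15.95 and 20.3, while the wells of Tri-DAP array 8 lay between 21.5 and 21.7. On MDP arrays 9 and 12 a single early well left the mean below the median, with a mean minus median of -0.744 and -0.884 cycles, and Tri-DAP array 5 had such a well too (-0.356 cycles).

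The common mean varied less. It lay at Ct 28.6, 29.3, 28.5 and 28.4 on the MDP arrays and 28.8, 29.7, 28.3 and 28.3 on the Tri-DAP arrays. Neither reference separated the ligands, with differences of 0.130 cycles for U6 (p = 0.8) and -0.0679 cycles for the common mean (p = 0.829) in two-sided exact permutation tests. Adjusted over the 6 reference RNAs and means compared, the smallest p was 0.971. The small nucleolar RNA snoRNA202 differed by 0.011 cycles, with a range of 20.4 to 21.4 over the 8 arrays.

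**Figure D1:**
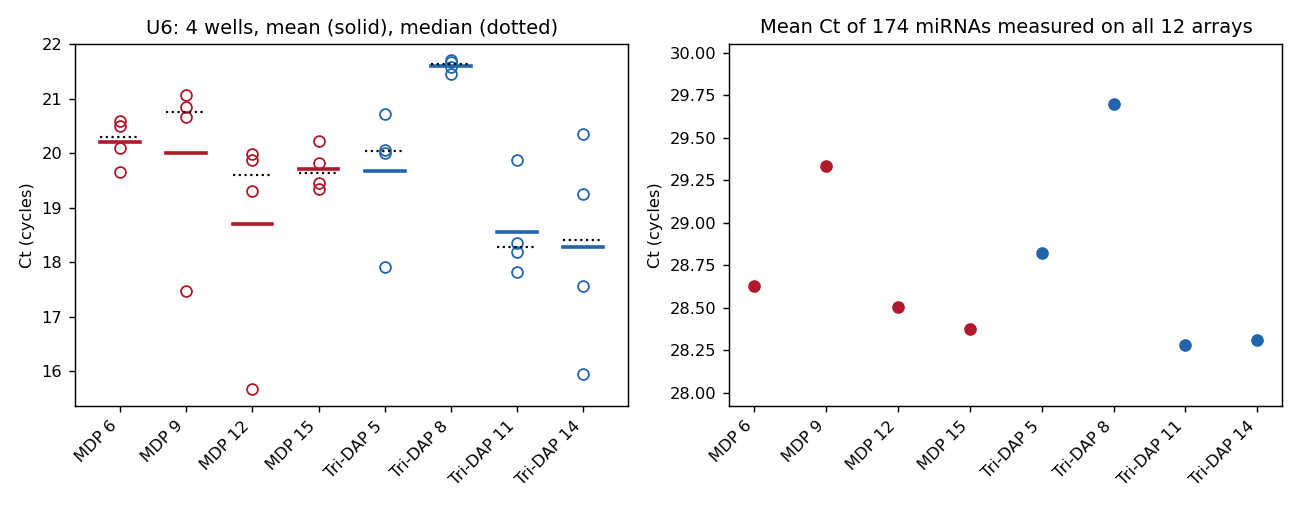
Left, Ct in cycles of the 4 U6 wells of each array (circles), with their mean (solid line) and median (dotted line); right, the common mean (cycles) over its 174 miRNAs. MDP arrays are red and Tri-DAP arrays blue. A single early well lies below the others on MDP arrays 9 and 12 and on Tri-DAP array 5, and both quantities are latest on Tri-DAP array 8.

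Relative to U6, 180 of the 241 tested miRNAs (74.7%) had the higher level after MDP, with a median difference of 0.18. Relative to the common mean, 113 (46.9%) were higher and the median was -0.02. The move from one scale to the other shifts a miRNA measured on all 8 arrays by 0.198, the amount by which the references disagree between ligands. With the median of the 4 U6 wells as reference, 92.1% were higher, and without any normalization 61.4%. Relative to U6 and without MDP array 15 and Tri-DAP array 14, the share fell to 28.7% and the median difference to -0.20. Leaving out Tri-DAP array 14 alone gave 41.9%, and Tri-DAP array 11 alone 49.6%. The common direction relative to U6 thus turned on which wells and arrays were used.

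Few single miRNAs separated the ligands, and none after adjustment. Relative to U6, 8 of 241 miRNAs (3.32%) were called, and relative to the common mean 7 of 241 (2.9%), all of them higher after MDP. Both shares lay below the threshold of 0.05 itself, the share expected where nothing differs and arrays are independent. The fit took no account of isolations shared between the ligands, so these shares do not show that nothing differs. No miRNA passed at an adjusted p of 0.05, and the smallest adjusted p in limma was 0.541 relative to U6 and 0.557 relative to the common mean. The 5 miRNAs called under both references were miR-674, miR-343, miR-1, miR-547 and miR-590-5p. MiR-489, miR-196b and miR-546 were called only relative to U6, and miR-23a and miR-423-5p only relative to the common mean. Leaving out MDP array 15 and Tri-DAP array 14 left 3 calls of 223 relative to U6 (2 of them among the 8) and 1 relative to the common mean (none of the 7). MiR-674, miR-343, miR-1 and miR-547 could not be tested there, as fewer than 2 measured arrays of a ligand remained. Their absence is thus not a lost difference.

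MiR-674 had the smallest p under both references. It was undetermined on MDP arrays 6 and 9, measured at Ct 28.2 and 29.7 on MDP arrays 12 and 15, and at 35.8, 33.9, 33.4 and 32.5 on the Tri-DAP arrays. Where measured it was thus earlier on the MDP arrays, but the undetermined wells were MDP wells too. The difference was 4.66 ± 1.13 (SE; n = 2 and 4; limma adjusted p = 0.541) relative to U6. When undetermined wells were kept at Ct 40, it turned to -0.42.

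MiR-1, which is known from heart and skeletal muscle, was measured at Ct 27.7, 29.6 and 31.4 on MDP arrays 6, 12 and 15, and at 34.3 and 33.4 on Tri-DAP arrays 5 and 14. All measured MDP wells were earlier, and 1 MDP and 2 Tri-DAP wells were undetermined. The difference was 4.87 ± 1.37 (SE; n = 3 and 2; limma adjusted p = 0.541). The rat assay for miR-1, measured on 4 MDP and 3 Tri-DAP arrays, gave 1.16 and was not called. Of the other muscle miRNAs, miR-133a differed by -0.05 relative to U6 and -0.10 relative to the common mean, and miR-208b by -0.30 and -1.004, with 2 MDP and 4 Tri-DAP arrays measured. MiR-133b was measured on no array.

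MiR-547 was measured at Ct 28.5 and 28.7 on MDP arrays 12 and 15 and at 31.8 and 34.6 on Tri-DAP arrays 5 and 14. The other 4 wells were undetermined. Its difference of 4.85 ± 1.54 (SE; n = 2 and 2; limma adjusted p = 0.898) thus rested on 4 wells. The rat assay for miR-343 was measured on every MDP array, at Ct 33.0, 34.2, 31.5 and 32.7, and on Tri-DAP arrays 5 and 14 at 35.5 and 35.2. No measured Tri-DAP well reached the MDP range. The difference was 3.18 ± 0.91 (SE; n = 4 and 2; limma adjusted p = 0.541) relative to U6 and 2.65 ± 0.60 relative to the common mean.

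MiR-590-5p was measured at Ct 30.2, 35.2 and 30.8 on MDP arrays 6, 9 and 15 and at 34.9, 35.1, 35.6 and 35.1 on the Tri-DAP arrays. MDP array 9 lay within the Tri-DAP range, so that the difference of 3.56 ± 1.33 (SE; n = 3 and 4; limma adjusted p = 0.928) came from 2 arrays. MiR-423-5p was the only called miRNA measured on all 8 arrays. It lay at -1.81, -3.22, -2.13 and -3.002 relative to the common mean after MDP and at -4.18, -2.80, -3.89 and -3.70 after Tri-DAP. The groups overlapped through MDP arrays 9 and 15 and Tri-DAP array 8, and the difference was 1.10 ± 0.46 (SE; n = 4 and 4; limma adjusted p = 0.992).

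The differences of miR-489 (2.54), miR-196b (2.35) and miR-546 (2.56) relative to U6 came from wells later than Ct 31, and each had at least 1 undetermined array. For miR-546 a well at Ct 39.5 on Tri-DAP array 8 was counted as measured, and without that array the difference was 1.42. MiR-196b lies in the HoxA gene cluster, whose genes pattern the body axis. MiR-23a differed by 1.71 ± 0.64 (SE; n = 2 and 4) relative to the common mean, from Ct 29.2 and 29.5 on MDP arrays 6 and 9 against 31.9, 30.9, 29.8 and 30.7 on the Tri-DAP arrays. It was undetermined on MDP arrays 12 and 15, and with these wells kept at Ct 40 the difference turned to -3.89. In the same setting miR-343 (4.96) and miR-546 (3.74) stayed called relative to U6. Of the 7 relative to the common mean, miR-343 alone did (4.77). MiR-1 kept its difference relative to U6 (4.89) but was no longer called.

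**Figure D2:**
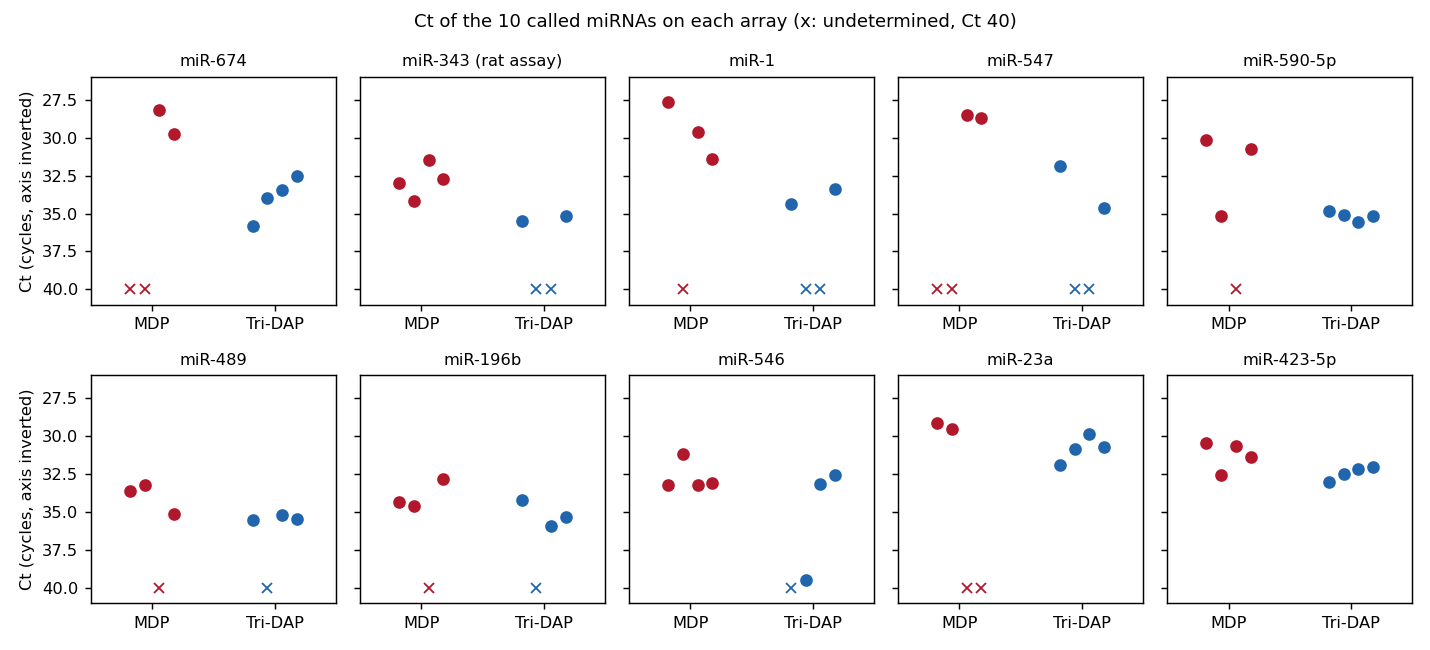
Ct in cycles, on an inverted axis, of the 10 miRNAs called under either reference, for the 4 MDP arrays (red) and the 4 Tri-DAP arrays (blue). Crosses at Ct 40 are undetermined wells. Of the 10, miR-423-5p alone is measured on all 8 arrays.

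Several of these calls turned on single arrays, and others could not be tested without them. MiR-674 could not be tested without MDP array 12 or 15, miR-1 and miR-343 not without Tri-DAP array 5 or 14, and miR-547 not without any of these 4. Wherever they could be tested with 1 array left out, they stayed called under both references. This held for miR-674, miR-1 and miR-343 in 6 of 6 fits and for miR-547 in 4 of 4. Of the 8 arrays left out in turn, 4 each ended the calls of miR-489, miR-196b and miR-546 relative to U6, and 3 ended that of miR-590-5p (MDP 6, MDP 15 and Tri-DAP 14). Relative to the common mean, miR-423-5p was called without MDP 9, MDP 15 or Tri-DAP 8 only. The count relative to U6 fell to 2 without Tri-DAP array 14 and rose to 17 without Tri-DAP array 8.

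Among miRNAs that were not called, miR-687 was the earliest of those with the 10 smallest p-values relative to U6 over at least 3 arrays of each ligand.
miR-687: cUAUCCUGgaaugcagcaauga
It was measured at Ct 27.36, 27.04, 26.2 and 26.4 after MDP and at 28.9, 27.4, 30.2 and 27.58 after Tri-DAP. As raw Ct the groups just failed to overlap, and relative to either reference they overlapped. The difference was 1.91 relative to U6 and 1.72 relative to the common mean (interval -0.20 to 3.63). MiR-448 (2.19), miR-487b (1.57), miR-501-3p (1.87), miR-380-5p (1.64) and miR-200a (1.33) lay on the same side relative to U6, each with an interval that held 0.

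The exact permutation test on single miRNAs could not go below 0.0286 for 4 against 4 arrays, and not below 0.0667 for 2 against 4. Its smallest possible p was 0.1 for 3 against 2 or 3 arrays and 0.333 for 2 against 2. MiR-674, miR-343, miR-1, miR-489 and miR-547 lay at the smallest p their measured arrays allowed, so these values do not count against a difference. The two-sided p of this permutation test relative to U6 was 0.0667 for miR-674 and miR-343, 0.1 for miR-1 and miR-489, and 0.333 for miR-547. For miR-590-5p it was 0.114 and for miR-546 0.0857. Among the 181 miRNAs measured on all 8 arrays, the MDP and Tri-DAP values of none stood clear of each other under either reference. Of the 216 measured on at least 3 arrays of each ligand, 3 (1.39%) did so relative to U6, namely miR-139-3p, miR-200a and miR-489, and 1 (0.463%) relative to the common mean, miR-487b. MiR-139-3p was named after its values were seen, and its wells were undetermined on MDP array 15 and Tri-DAP array 14.

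How narrowly the differences between the ligands were bounded depended on the cycle. Relative to the common mean, the 24 miRNAs with a mean Ct below 25 differed by a median of 0.08 in either direction, and the 45 between Ct 25 and 28 by 0.08. From Ct 31 to 34 the median rose to 0.50 over 78 miRNAs, of which 24 differed more than 2-fold. The calls lay in the late range: no miRNA with a mean Ct below 28 was called under either reference. For 47 of the 241 miRNAs the 95% interval of the difference lay wholly within 2-fold in either direction relative to the common mean, and of these 47, 10 had a mean Ct below 25 and 25 one between 25 and 28. Relative to U6 no interval was that narrow, and the median half-width was 1.92, against 1.40 relative to the common mean. For most of the remaining miRNAs the interval held both 0 and a difference of 2-fold.

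**Figure D3:**
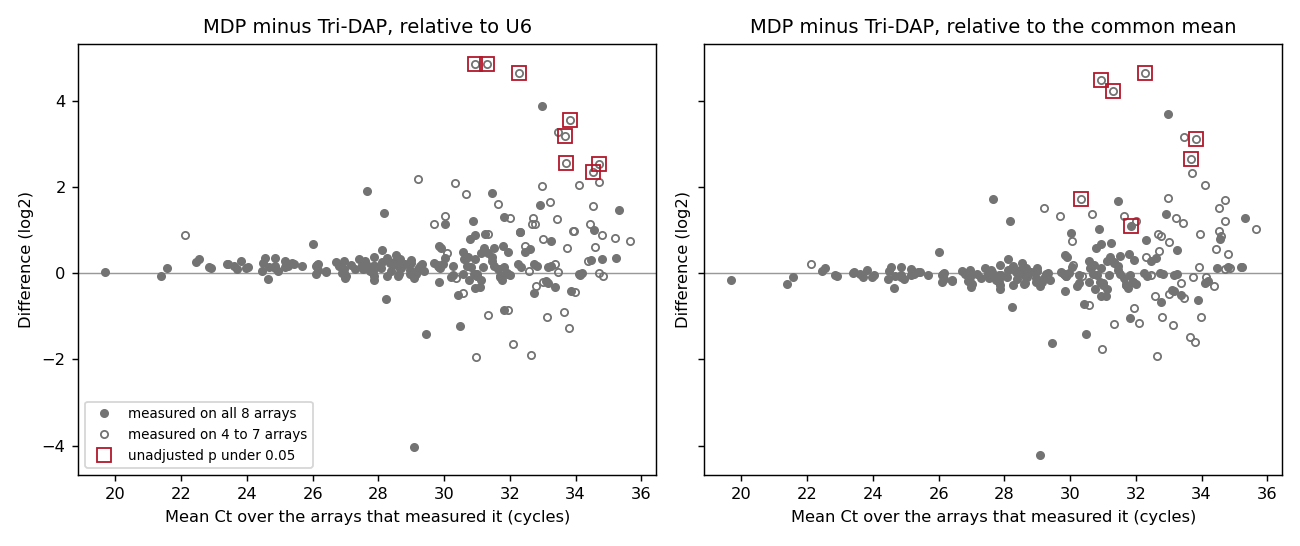
Difference of MDP minus Tri-DAP (log2) against the mean Ct in cycles for the 241 tested miRNAs, relative to U6 (left) and to the common mean (right). Filled points were measured on all 8 arrays, open points on 4 to 7, and squares mark an unadjusted limma p under 0.05. The points fan out with later Ct, and all squares lie beyond Ct 30.

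By family and cluster, the medians depended on the reference. Of 30 families and 18 clusters, 40 lists had at least 2 tested members, and some miRNAs stand in several lists. Relative to U6, 36 of the 40 medians were above 0, and relative to the common mean 15 were. On the latter scale 34 of the 40 lay within 0.25 of 0. The common mean averages 174 of the tested miRNAs, so differences on that scale centre near 0 by construction. Medians near 0 there thus do not show that the ligands act alike. Over all tested miRNAs the median was 0.18 relative to U6 and -0.02 relative to the common mean, so most lists moved as the reference did.

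The let-7 family, whose members restrain growth-promoting genes in differentiated cells, had all 9 assays measured on all 8 arrays. Its median difference was 0.19 relative to U6 and -0.01 relative to the common mean, and its members ran from -0.34 for let-7e to 0.34 for let-7a on the latter scale. Averaged over members, the family deviated from its own mean by 0.03, 0.25, -0.08 and -0.18 on the MDP arrays and by 0.17, 0.47, -0.21 and -0.45 on the Tri-DAP arrays. The Tri-DAP arrays thus spanned a wider range that enclosed the MDP arrays.

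The miR-17-92 cluster of chromosome 14, which promotes growth and vessel formation, varied more between arrays. Its 6 members averaged -0.07, -0.97, 0.78 and 0.24 on the MDP arrays and 0.11, -0.97, 0.78 and 0.09 on the Tri-DAP arrays. The difference between ligands was -0.01, while the arrays of each ligand ran from -0.97 to 0.78. The cluster of miR-221 and miR-222, which restrain endothelial migration through the receptor KIT, differed by 0.17 relative to U6 and by -0.03 relative to the common mean. For miR-222 the interval relative to the common mean ran from -0.73 to 0.69. The miR-30 family (5 of 5 tested) and the miR-29 family (3 of 3), which represses collagen genes, had medians of -0.04 and 0.01 relative to the common mean. For miR-29 the members averaged 0.50, 0.72, -0.22 and -1.10 after MDP and 0.61, 0.41, -0.08 and -0.85 after Tri-DAP, with the lowest values on MDP array 15 and Tri-DAP array 14.

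The spread between arrays was larger than the difference between ligands in nearly all lists. For the 31 families and clusters with at least 2 members measured on all 8 arrays, the ligand means differed by less than 1 pooled SD between arrays in 30, under either reference. The median SD between arrays was 0.511 and the median size of the ligand difference 0.125 relative to the common mean. In none of the 31 did the 4 MDP arrays stand clear of the 4 Tri-DAP arrays. This spread takes no account of the isolations that the ligands share.

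**Figure D4:**
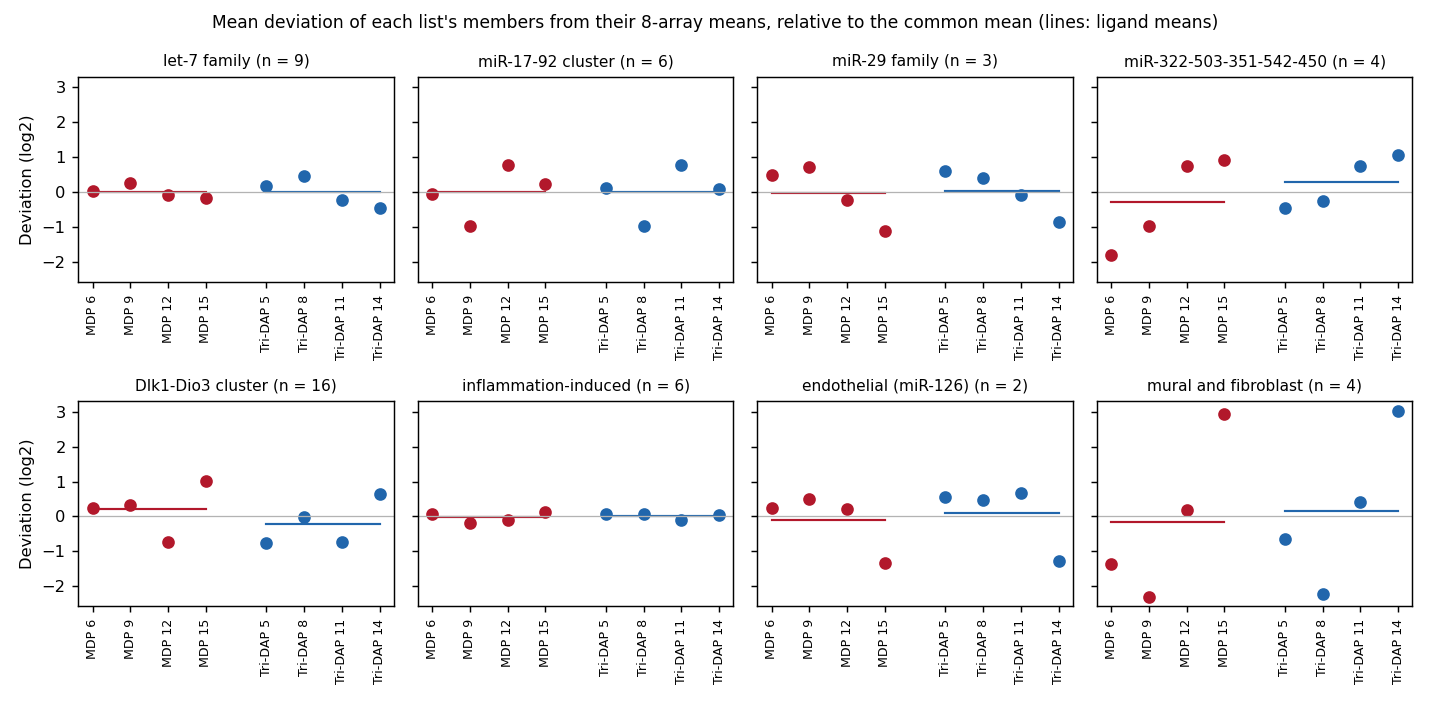
Mean deviation (log2, relative to the common mean) of the members of 8 lists from their own means over the 8 arrays, for members measured on all 8. Points are arrays, MDP in red and Tri-DAP in blue, and lines are the means per ligand. The arrays differ far more than the ligand means, most in the mural and fibroblast list, where MDP 15 (2.93) and Tri-DAP 14 (3.02) lie highest.

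Within some families and clusters the difference of a single member lay apart from those of the rest, which was not tested between members. In the miR-23a-27a-24 cluster of chromosome 8, miR-23a stood at 2.09 relative to U6, against 0.13 for miR-27a and 0.12 for miR-24, which were measured on all 8 arrays. MiR-23b, the paralog of miR-23a, lay at -0.20. In the miR-15/16 family, which restrains the cell cycle, miR-15a lay at -1.42 and the other 5 members reached up to 0.36 for miR-497. MiR-15a was measured at Ct 30.2, 34.5, 27.2 and 28.99 after MDP and 27.98, 31.9, 27.2 and 27.53 after Tri-DAP, and the interval of its difference ran from -4.02 to 1.19.

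The X-linked cluster of miR-322, miR-503, miR-351, miR-542 and miR-450 was the cluster with the lowest median relative to U6 (-0.22, 6 of 7 tested). MiR-351 had the lowest value in it (-1.22), measured at Ct 34.4, 33.4, 27.98 and 28.8 after MDP and 30.9, 30.4, 29.6 and 28.3 after Tri-DAP. MDP arrays 6 and 9 were later than every Tri-DAP array, MDP array 12 was earlier than every one, and MDP array 15 lay within their range. The rat assay for miR-351, measured on 4 arrays of each ligand, gave -0.05 relative to U6. MiR-450a-5p lay at -0.89, and the rat assay for miR-450a, measured on 2 arrays of each ligand, at 1.30. The cluster with miR-532 and miR-501 on the X chromosome had a median of 0.20 relative to U6 with all 6 tested, and miR-501-3p stood highest at 1.87 (interval -0.47 to 4.21).

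The imprinted Dlk1-Dio3 cluster of chromosome 12, a large group of miRNAs read from the maternal chromosome, had 47 assays on the card, of which 39 were measured at least once and 26 were tested. Its median difference was 0.41 relative to U6 and 0.21 relative to the common mean, with 19 (73.1%) and 17 (65.4%) of 26 members higher after MDP, against 74.7% and 46.9% of all tested miRNAs. None was called, against 3.32% and 2.9% of all. The 16 members measured on all 8 arrays averaged 0.25, 0.32, -0.73 and 1.01 on the MDP arrays and -0.76, -0.01, -0.72 and 0.63 on the Tri-DAP arrays, so the ligands overlapped. The highest member, miR-337-5p (3.89), rested on a single well at Ct 21.5 on MDP array 6, against 33.4 to 35.5 on the other 7 arrays. Without this member the mean of the remaining 15 on MDP array 6 was -0.49 in place of 0.25, and the list difference 0.21 in place of 0.43. The lowest, miR-433 (-1.645), was measured on 2 arrays of each ligand.

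The Sfmbt2 cluster on chromosome 2, an intronic group of the miR-466, miR-467 and miR-669 families, had 6 of 9 members tested and a median of 0.13 relative to U6. Its members ran from -0.84 for miR-467e to 1.15 for miR-467d. The lowest difference of all 241 miRNAs was that of miR-680 (-4.02), which came from a well at Ct 10.6 on Tri-DAP array 11, while the other 7 arrays lay between Ct 30.0 and 33.8.

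**Figure D5:**
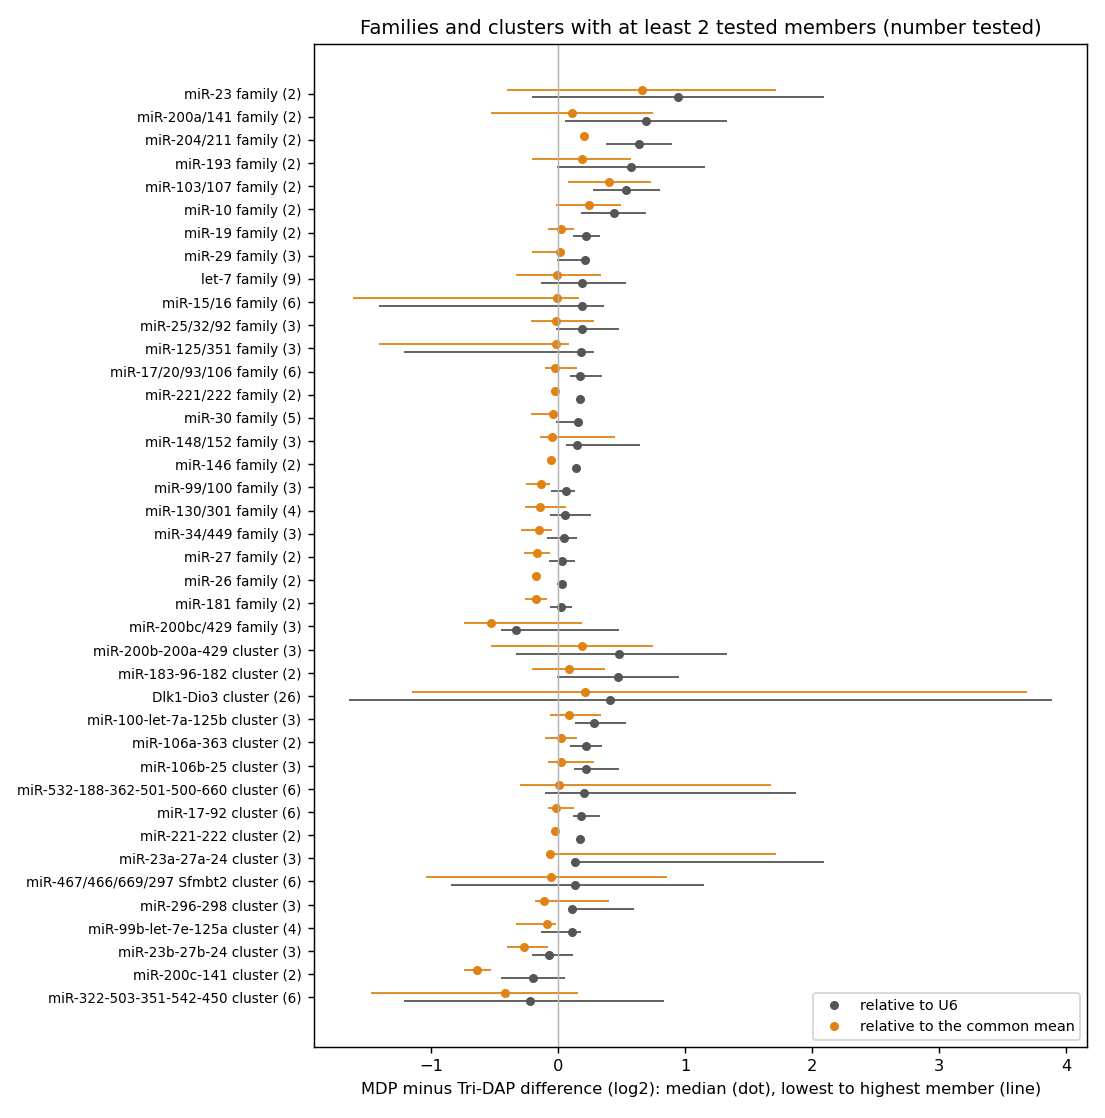
Median (dot) and range over members (line) of the MDP minus Tri-DAP difference (log2) for the 24 families and 16 clusters with at least 2 tested members, relative to U6 (grey) and to the common mean (orange). Numbers in brackets are the tested members. Most medians sit near 0.18 in grey and near -0.02 in orange, and single members stretch the lines.

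The miR-200 miRNAs, which hold epithelial cells in their state, are cut from a cluster on chromosome 4 and another on chromosome 6, and they fall into 2 seed groups. They are shown because their groups and clusters cross.
miR-200a-3p: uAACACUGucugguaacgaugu
miR-141-3p: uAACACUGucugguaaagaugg
miR-200b-3p: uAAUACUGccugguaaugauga
miR-200c-3p: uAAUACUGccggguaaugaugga
miR-429-3p: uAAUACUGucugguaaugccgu
Relative to U6, miR-200a differed by 1.33 (interval -0.34 to 2.997) and its seed partner miR-141 by 0.05. MiR-200b, from the same cluster as miR-200a, lay at 0.47, miR-429 at -0.33 and miR-200c at -0.45. At the widest, the intervals of these miRNAs relative to U6 reached -2.88 and 2.997. Whether the members of a seed group or cluster moved together thus cannot be told, and differences between members were not tested. MiR-200a was measured at Ct 30.51, 30.1, 29.7 and 29.04 after MDP and at 31.3, 30.4 and 29.3 on Tri-DAP arrays 5, 11 and 14, and it was undetermined on Tri-DAP array 8. The limma test gave an adjusted p of 0.999 relative to U6.

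All 7 miRNAs of the list known for induction in inflammation were tested, with a median difference of 0.15 relative to U6 and -0.04 relative to the common mean. None was called, against 3.32% and 2.9% of all tested miRNAs, and relative to the common mean 2 of the 7 intervals lay within 2-fold. MiR-146a, which dampens NF-κB signalling, was measured at Ct 23.8, 24.7, 23.1 and 24.3 after MDP and 23.6, 25.2, 23.0 and 24.4 after Tri-DAP. Relative to the common mean it differed by -0.04, with an interval from -1.07 to 0.98. MiR-155, which promotes inflammatory signalling, was measured between Ct 24.8 and 26.4 on the 8 arrays and differed by 0.03 (interval -0.62 to 0.69). MiR-21 differed by -0.09 (interval -0.80 to 0.61). For miR-155 and miR-21 the intervals thus lay within 2-fold, and for miR-146a the interval just passed it. MiR-132 differed by -0.02 with a wide interval (-1.93 to 1.88), and miR-147 by 0.92 (-1.03 to 2.87).

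Of the 5 miRNAs that the study introduced as linked to NOD1 or NOD2 (miR-146a, miR-495, miR-10a, miR-320 and miR-125a-5p), all were measured on all 8 arrays. Their differences lay between 0.10 for miR-495 and 0.23 for miR-320 relative to U6, and between -0.10 and 0.03 relative to the common mean. Relative to the common mean 2 of the 5 intervals lay within 2-fold, and at the widest they reached -1.56 and 1.62. Relative to U6 none lay within 2-fold, and they reached -1.60 and 2.06. MiR-10a had the narrowest values, from 1.52 to 2.18 after MDP and from 1.67 to 2.20 after Tri-DAP relative to the common mean.

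The study followed up miR-147, miR-200a and miR-298, a choice made on these samples. MiR-147 was measured on 2 MDP arrays (Ct 33.4 and 33.9) and 3 Tri-DAP arrays (33.5, 34.7 and 34.2), and differed by 0.99 relative to U6 (interval -1.63 to 3.61). MiR-298 was measured on all 8 arrays, at Ct 32.4, 30.497, 31.6 and 30.6 after MDP and 31.95, 32.04, 30.9 and 32.1 after Tri-DAP. It differed by 0.60 relative to U6 and 0.40 relative to the common mean, and its groups overlapped. With its neighbours miR-296-5p and miR-296-3p it gave a cluster median of 0.11 relative to U6. The interval of each of the 3 reached beyond 2-fold, so that a 2-fold difference between the ligands was neither shown nor set aside.

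Detection was compared as a measure of its own, without a reference and thus without adjustment for shifts of a whole array. The MDP arrays measured 254, 244, 235 and 246 of the 375 miRNAs, and the Tri-DAP arrays 241, 231, 245 and 247. The means were 244.75 ± 7.80 (SD, n = 4) and 241 ± 7.12 (SD, n = 4), a difference of 3.75 that lay within the spread of either group (exact permutation test, two-sided, p = 0.486). Tri-DAP array 8, whose common mean was the latest, measured the fewest, and without it the difference was 0.417. Of the 375 assays, 181 were measured on all 8 arrays, 62 on none, and 132 on some. Of these 132, 57 were measured on more MDP arrays, 49 on more Tri-DAP arrays, and 26 on equally many.

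No assay was measured on all arrays of one ligand and none of the other. By Fisher's exact test none of the 132 differed at an unadjusted p of 0.05. The smallest p was 0.143 and its adjusted value 1. With 4 arrays per ligand the smallest p that this test allows is 0.0286, for a split of 4 against 0. Lesser splits could not fall below 0.05, so the result does not count against a difference in detection. In 5 of 132 (3.79%) the number of arrays differed by 3: miR-323-3p, miR-449b and miR-465a-5p were measured on 4 MDP arrays and 1 Tri-DAP array, miR-338-3p on 3 and 0, and miR-375 on 1 and 4. A total of 24 assays were measured after MDP only and 22 after Tri-DAP only, 19 and 18 of them on a single array.

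The sequences of the detection differences available in RefSeq are shown because they share neither seed nor locus.
miR-323-3p: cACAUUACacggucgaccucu
miR-338-3p: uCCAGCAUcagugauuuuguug
miR-465a-5p: uAUUUAGAauggcacugauguga
MiR-323-3p, of the Dlk1-Dio3 cluster (chr12:109712558-109712578), was measured at Ct 33.3, 33.2, 29.7 and 32.3 after MDP and at 34.7 on Tri-DAP array 14. MiR-338-3p (chr11:120014781-120014802), which is known from oligodendrocytes and neurons, was measured at Ct 33.9, 35.2 and 35.1. MiR-465a-5p (chrX:66839099-66839121) was the early one among them, at Ct 29.4, 25.9, 25.2 and 28.5 after MDP and 27.7 on Tri-DAP array 8, with the other Tri-DAP wells undetermined. MiR-375, known from pancreatic islets and epithelia, was measured at Ct 35.3 on MDP array 6 and at 35.4, 33.4, 34.99 and 34.5 after Tri-DAP.

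Detection was also summed by cluster. In the Dlk1-Dio3 cluster 105 of 188 wells were measured after MDP and 104 of 188 after Tri-DAP. In the X-linked miR-743-to-465 cluster, known from testis, 11 and 7 of 60 wells were measured, and no member could be tested by level. Of its 15 assays 7 were measured at least once. In the miR-449 cluster, known from ciliated cells, 8 of 8 and 5 of 8 wells were measured, and all 3 missing wells were those of miR-449b. Its neighbour miR-449a was measured on all 8 arrays and differed by 0.15 relative to U6. Over the whole card 979 of 1500 wells were measured after MDP and 964 of 1500 after Tri-DAP.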

How the data were processed

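The authors reverse transcribed total RNA from each isolation, ran it on TaqMan rodent cards and deposited a table of Ct values (a score in PCR cycles) and a table of normalized values. The deposited normalized values are on the log2 scale and subtract from each Ct the average of the 4 U6 wells; the sign was turned here. Columns of the authors' own fold changes and p-values were not used, nor were 12 columns of the Ct table that carry no array name. Cards give no counts, so their number limits the precision. Labels mark the 4 arrays per ligand as separate samples and do not state which share an isolation.

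Undetermined wells (Ct 40) were treated as missing. Differences were fitted with limma 3.58.1 in R 4.3.3 (lmFit, eBayes; MDP and Tri-DAP arrays only, no covariate), with Benjamini-Hochberg adjustment over all 241 tested miRNAs. Single quantities were compared with two-sided exact permutation tests and detection with Fisher's exact test (scipy 1.17.1). The fit was tested on simulated data. Alternatives were other references, Ct limits, models and left-out arrays. Named were called miRNAs, the 10 smallest p with at least 3 arrays each, assays differing by 3 arrays in detection, marker and role lists, and the extremes of each family or cluster. The members and lists were chosen with earlier results of these data known, and cluster membership was corrected by RefSeq positions after the files were seen.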

Additional observations from a re-analysis of the deposited data

Results flagged for a closer look

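In 85 groups of 4 arrays, 5 held 1 array far from the other 3 (a gap over 0.829 of the range), where chance gives about 1 in 20, or 4.25. Relative to U6, miR-343 lay at -14.15 on MDP array 9 against -13.00 to -12.78 on the other MDP arrays. MiR-423-5p lay at -10.90 on Tri-DAP array 8 against -13.73 to -13.33, and miR-375 at -11.83 on the same array against -16.43 to -15.76. MiR-199a-3p lay at -6.21 on Tri-DAP array 14 against -7.96 to -7.73, and miR-129-3p at -13.04 on MDP array 12 against -10.12 to -9.74. U6 itself came latest on Tri-DAP array 8 (Ct 21.6).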

How the results depend on the processing

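No call passed adjustment, and the counts of called miRNAs (8 of 241 relative to U6, 7 relative to the common mean) moved with most choices. Student's t-test, which the methods name for other data, gave 4 and 3 calls at the same unadjusted threshold, a minimum of 3 measured arrays per ligand 4 and 2, and measurement on all 8 arrays 0 and 1. Relative to U6, wells above Ct 35 treated as undetermined gave 3 calls, and the median of the U6 wells, an alternative chosen after seeing the data, gave 13. Leaving out MDP array 15 and Tri-DAP array 14 together, also chosen after seeing the data, gave 3 calls relative to U6 and 1 relative to the common mean. In that setting miR-674, miR-343, miR-1 and miR-547 could not be tested. Leaving out 1 array at a time gave 2 (without Tri-DAP 14) to 17 calls (without Tri-DAP 8) relative to U6 and 3 (without Tri-DAP 5) to 13 calls (without Tri-DAP 8) relative to the common mean. MiR-674 turned to -0.4166 with undetermined wells at Ct 40, by construction, since 2 MDP wells were undetermined. MiR-343, undetermined on Tri-DAP arrays 8 and 11, rose to 4.964 in that setting, likewise by construction.

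Of the 40 family and cluster medians, 36 lay above 0 relative to U6, 15 relative to the common mean and 6 without both arrays, and 10 (without Tri-DAP 14) to 39 (without MDP 12) with 1 array left out. Detection gave 0 calls in the main setting, where only a split of 4 against 0 arrays could give one. It gave 1 (miR-343) with Ct under 35 counted as measured, and 0 to 2 with 1 array left out (2 without Tri-DAP 8). With 1 array left out, the U6 Ct difference ran from -0.2874 to 0.8211 cycles, that of the common mean from -0.2757 to 0.2386, and that in measured miRNAs from 0.417 to 7. Causes were not tested, other than where stated.

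The methods imply isolations shared between ligands, but no source used here says which arrays are partners. As a hint from the data, consecutive numbers were set as pairs: their correlations over 174 miRNAs were 0.01, 0.61, 0.20 and 0.30, and 3 of the 4 MDP arrays correlated best with that partner. With this replicate block 6 of 214 miRNAs were called relative to U6 (4 among the 8) and 9 of 214 relative to the common mean (2 among the 7). The smallest adjusted p relative to U6 was then 0.0143, for miR-337-5p and miR-680, whose differences rest on the single early wells already given. Over these pairs 8 of the 31 family and cluster means were lower after MDP in all 4 pairs relative to the common mean and 0 higher, and relative to U6 0 and 0. The same count over all miRNAs was not made, so these 8 have no background share to be read against. They also overlap, as the miR-27 family and the miR-23b-27b-24 cluster both hold miR-27b.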
